A study of Mus musculus with 8 samples.

Results

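The genes described here are 10 nuclear receptors and transcriptional coactivators that set the metabolic programme of a cell. They comprise the receptors Ppara, Ppard, Pparg, Rxra, Nr1h3, Esrra and Esrrg, the coactivators Ppargc1a and Ppargc1b, and Lpin1, which acts both as an enzyme and as a coactivator. They were picked by gene symbol from the deposited count table, though with earlier results of these data known. All 10 were present among the 17190 genes listed. RNA was sequenced from hearts of male mice kept on a standard chow diet, 4 libraries labelled wildtype (numbers 2, 4, 5 and 6) and 4 labelled as Gpihbp1 knockout (numbers 1, 2, 3 and 4). The study asked what the lack of Gpihbp1 does to the heart. Gpihbp1 encodes the protein of capillary endothelium that carries lipoprotein lipase to the vessel lumen, where triglyceride-rich lipoproteins are broken down to fatty acids. Age, strain, the way the allele was made, whether the groups were littermates and whether a library holds 1 heart or a pool are not given in the labels. The p-values therefore measure the spread between these libraries.

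The heart takes most of its energy from fatty acids, and these 10 genes link the supply of fatty acids to the genes that use them. The peroxisome proliferator-activated receptors bind fatty acids and their derivatives and, paired with a retinoid X receptor, switch on genes of fatty acid uptake and oxidation. Oestrogen-related receptors need no known natural ligand and drive genes of oxidative phosphorylation and the citric acid cycle, with PGC-1 proteins as their main coactivators. The liver X receptors respond to oxysterols and govern cholesterol export and lipid synthesis.

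The libraries held 9065553 to 13492957 counts. Gpihbp1 itself had 833 to 1951 counts in the wild-type libraries and 0, 0, 1 and 0 in the knockout libraries, as the labels say. Some libraries stood apart within their genotype. Summed markers of cardiomyocytes were at 47600 TPM (a unit of transcript abundance corrected for length) in wild-type 2 and 49900 in knockout 2, against 83400 to 102000 in the other 6. Summed macrophage markers were at 5940 TPM in wild-type 2 and 4980 in knockout 2, against 507 to 957 elsewhere, and summed fibroblast markers at 3290 and 4110, against 314 to 826 elsewhere. The matrix genes Postn and Col3a1 were at 1532 and 3607 CPM in wild-type 2 and at 1069 and 4384 CPM in knockout 2, where no other library exceeded 68.2 and 203 CPM. The atrial peptide gene Nppa was at 3132, 3262 and 4467 CPM in wild-type 2, wild-type 6 and knockout 2, against 157 to 298 CPM in the other 5. Wild-type 6 carried the atrial light chain Myl4 at 974 CPM, against 1.83 to 2.45 in the other 7, and 18600 TPM of erythroid markers, against at most 5050 elsewhere. It also had a median TPM over genes of 1.93, against 4.63 to 6.82 in the others, and its longest genes were low. Genes with a mean of at least 10 CPM were put in 4 equal classes by length, as implied by their deposited counts over TPM. On the log2 scale relative to each gene's mean, the longest class had a median of -0.37 in wild-type 6, and the shortest 0.69. In wild-type 5 that order was turned, with 0.28 for the longest class and -0.37 for the shortest. Ppara, Rxra, Esrrg, Ppargc1a, Ppargc1b and Lpin1 belong to the longest class, and Nr1h3 to the shortest. In RNA of bulk tissue, fewer cells of a type and less RNA per cell cannot be told apart.

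None of the 10 genes passed the test between genotypes, and for each of them the values of the genotypes overlapped. With edgeR's quasi-likelihood test, 0 of 10 had an adjusted p under 0.05, where 4 of all 12826 tested genes did (0.0312%). At an unadjusted p under 0.05 the count was also 0 of 10, beside 116 of all tested genes (0.904%), and DESeq2 called 0 of 10. The genotypes did not overlap in 0 of the 10 genes, beside 81 of all tested genes (0.632%). The fitted log2 fold changes, knockout minus wild-type, were positive in 5 genes (Ppard, Esrrg, Ppargc1a, Ppargc1b and Lpin1) and negative in 5 (Ppara, Pparg, Rxra, Nr1h3 and Esrra). They ran from -0.49 for Nr1h3 to 0.23 for Esrrg, and edgeR's adjusted p was 0.99998 for each. For each gene the means of the genotypes differed by less than the SD of the wild-type libraries, as the plot of CPM by library shows. Levels within a gene are given below as CPM (counts relative to the library total) scaled by TMM, a normalisation for library composition. Levels between genes are given as TPM.

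**Figure D1:**
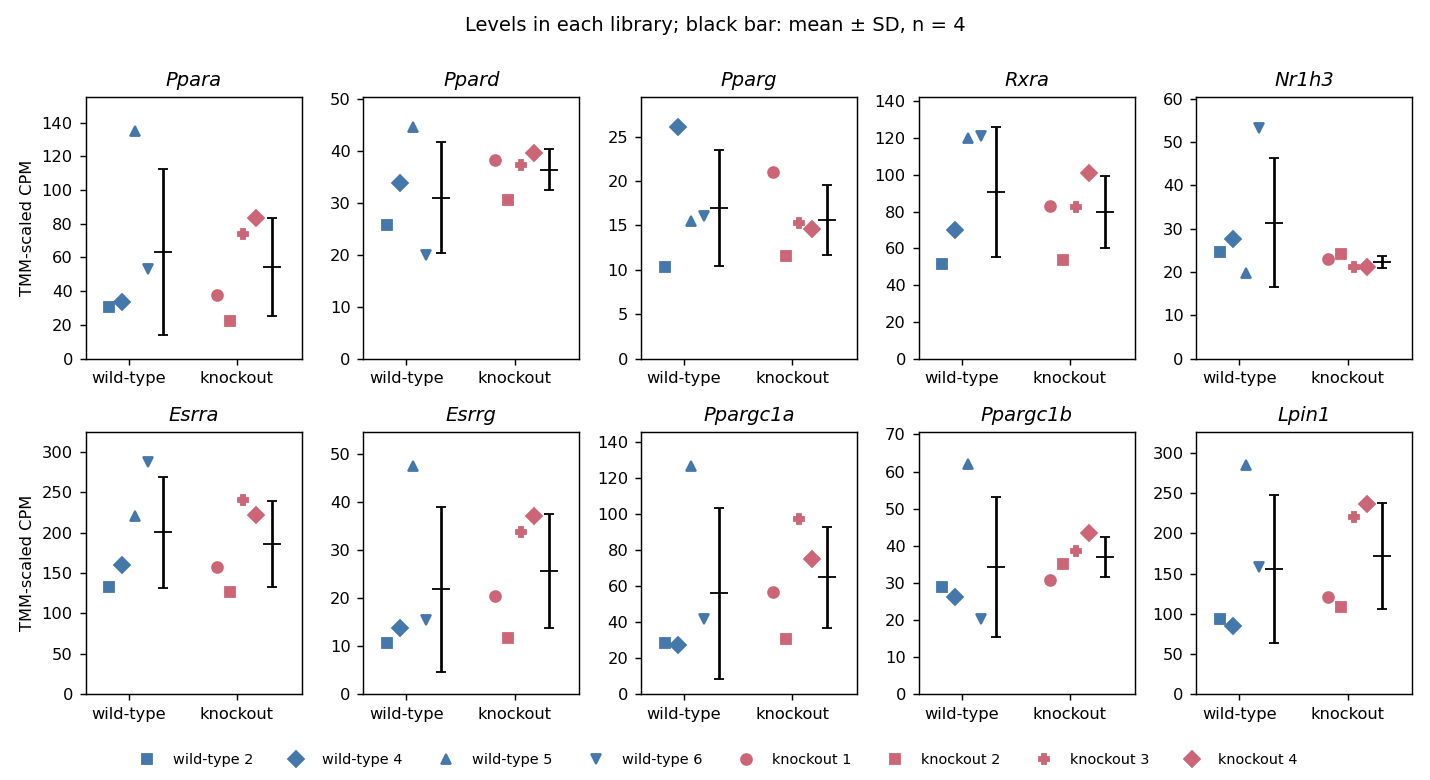
Level of each of the 10 genes in each library, as TMM-scaled CPM (vertical axis, from 0), with wild-type libraries in blue and knockout libraries in red. Each marker shape stands for 1 library, and the black bar is the mean ± SD of 4 libraries. Wild-type 5 is the highest library for Ppara, Ppard, Esrrg, Ppargc1a, Ppargc1b and Lpin1, and in every panel the genotypes overlap.

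Ppara encodes the receptor PPAR alpha, the main fatty acid sensor of cardiac muscle, which drives beta-oxidation genes. Its level was 30.7, 33.5, 135 and 53.4 CPM in wild-type 2, 4, 5 and 6, and 37.7, 21.99, 73.9 and 83.3 CPM in knockout 1, 2, 3 and 4. Wild-type 5 was far above all others, knockout 3 and 4 came next, and knockout 2 was lowest, so that the knockout values fell on both sides of most wild-type values. The means were 63.2 ± 49.1 CPM in wild-type and 54.2 ± 29.1 CPM in knockout hearts (SD, n = 4 each). The log2 fold change was -0.22 ± 0.56 (SE), with a 95% interval of -1.48 to 1.03 (edgeR, unadjusted p = 0.699). Its sign rested on single libraries: without wild-type 5 it was 0.47, and without knockout 2 it was 0.04. Ppara lies on chromosome 15, as does Gpihbp1, 225 places further along among the 674 listed genes of that chromosome in the order of assembly GRCm38.p6.

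Ppard encodes PPAR delta, which is expressed in most tissues and in muscle shares many targets with PPAR alpha. Its level was 25.7, 33.7, 44.6 and 19.96 CPM in wild-type 2, 4, 5 and 6, and 38.3, 30.5, 37.2 and 39.6 CPM in knockout 1 to 4. The knockout values lay close together, inside the range of the wild-type ones. Means were 31.0 ± 10.7 and 36.4 ± 4.03 CPM (SD, n = 4 each). The log2 fold change was 0.23 ± 0.26 (SE; interval -0.36 to 0.82; edgeR, unadjusted p = 0.403). With wild-type 2, wild-type 6 and knockout 2 all left out the log2 fold change was -0.03.

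Pparg encodes PPAR gamma, the regulator of fat cell formation, which in the heart is found in endothelium and at a low level in muscle cells. It read 10.3, 26.0, 15.5 and 16.02 CPM in wild-type 2, 4, 5 and 6, and 21.1, 11.6, 15.3 and 14.6 CPM in knockout 1 to 4. The highest library of each genotype, wild-type 4 and knockout 1, stood apart from the other 3 of its genotype. These were also the libraries with the highest summed endothelial markers, 5190 and 3510 TPM against 1730 to 2290 in the other 6. Much of that sum is the endothelial and adipocyte fatty acid carrier Fabp4, and without it the sums were 1390 and 1020 TPM, against 369 to 713 elsewhere. The part of endothelial content in the level of Pparg was not tested. Summed adipocyte markers were between 0 and 4.74 TPM in all 8 libraries. The log2 fold change of Pparg was -0.12 ± 0.31 (SE; interval -0.82 to 0.58; edgeR, unadjusted p = 0.712), from means of 17.0 ± 6.58 and 15.6 ± 3.97 CPM (SD, n = 4 each). Without wild-type 4 it was 0.18.

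Rxra encodes retinoid X receptor alpha, the partner with which the PPARs and liver X receptors bind DNA. Its level was 51.3, 70.0, 119.9 and 121.0 CPM in wild-type 2, 4, 5 and 6, and 82.9, 53.6, 82.6 and 100.8 CPM in knockout 1 to 4. The lowest library of each genotype was its number 2, the ones low in cardiomyocyte markers, whose part in this was not tested. Means were 90.5 ± 35.4 and 80.0 ± 19.6 CPM (SD, n = 4 each), and the log2 fold change was -0.18 ± 0.33 (SE; interval -0.92 to 0.56; edgeR, unadjusted p = 0.601). With wild-type 2 left out it was -0.37, and with wild-type 5 left out -0.011.

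Nr1h3 encodes liver X receptor alpha, an oxysterol receptor known best from liver and macrophages. Its level was 24.7, 27.7, 19.8 and 53.1 CPM in wild-type 2, 4, 5 and 6, and 22.9, 24.0, 21.1 and 21.1 CPM in knockout 1 to 4. The knockout libraries lay within a 1.14-fold range, the narrowest of the 10 genes, and wild-type 6 alone was more than 1.5 times any of the others. Means were 31.3 ± 14.9 and 22.3 ± 1.45 CPM (SD, n = 4 each), and the log2 fold change of -0.49 ± 0.30 (SE) had an interval of -1.17 to 0.19 (edgeR, unadjusted p = 0.139), the smallest p among the 10. Without wild-type 6 the log2 fold change was -0.13. In TPM, wild-type 6 was at 19.5, in the middle of all 8 libraries, which spanned 16.7 to 24.2. The libraries rich in macrophage markers, wild-type 2 and knockout 2, were at 24.7 and 24.0 CPM and so within the range of the rest.

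Esrra encodes the oestrogen-related receptor ERR alpha, which drives mitochondrial energy genes. Its level was 133, 160, 221 and 287 CPM in wild-type 2, 4, 5 and 6, and 157, 127, 240 and 221 CPM in knockout 1 to 4. Both genotypes thus held 2 libraries near or under 160 CPM and 2 above 220 CPM. Means were 200.5 ± 68.6 and 186 ± 53.5 CPM (SD, n = 4 each), and the log2 fold change was -0.11 ± 0.33 (SE; interval -0.85 to 0.64; edgeR, unadjusted p = 0.756). Scaling by total counts alone gave 0.04. That scaling moved the median over all tested genes from -0.02 to 0.08, and Esrra stayed on the lower side of it.

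Esrrg encodes ERR gamma, a close relative of ERR alpha with a leading part in the switch of heart muscle to oxidative metabolism after birth. Its level was 10.7, 13.8, 47.4 and 15.3 CPM in wild-type 2, 4, 5 and 6, and 20.3, 11.6, 33.8 and 37.0 CPM in knockout 1 to 4. In wild-type hearts 3 libraries were low and wild-type 5 was about 3-fold above the next, while the knockout libraries were spread between those levels. Means were 21.8 ± 17.2 and 25.7 ± 11.9 CPM (SD, n = 4 each), and the log2 fold change was 0.23 ± 0.53 (SE; interval -0.95 to 1.41; edgeR, unadjusted p = 0.667). Without wild-type 5, the highest library for this gene, it was 0.95 (edgeR, unadjusted p = 0.0455, adjusted p = 0.762), and without knockout 4 it was 0.0033. The share of all genes with an unadjusted p under 0.05 was not counted in the fit without wild-type 5. The 0.904% given above belongs to the fit with all 8 libraries.

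Ppargc1a encodes PGC-1 alpha, the inducible coactivator of the PPARs and ERRs that raises mitochondrial content in response to cold, fasting and exercise. Its level was 28.1, 27.4, 126 and 41.3 CPM in wild-type 2, 4, 5 and 6, and 56.7, 30.5, 96.9 and 74.8 CPM in knockout 1 to 4. Wild-type 5 was again alone at the top of its genotype, and knockout 1, 3 and 4 were above the other 3 wild-type libraries. Means were 55.8 ± 47.4 and 64.7 ± 28.2 CPM (SD, n = 4 each), and the log2 fold change was 0.21 ± 0.54 (SE; interval -1.004 to 1.43; edgeR, unadjusted p = 0.702). Without wild-type 5, the highest library for this gene, it was 1.005 (edgeR, unadjusted p = 0.0319, adjusted p = 0.758), and without knockout 3 it was -0.05. The share of all genes under an unadjusted p of 0.05 was not counted without wild-type 5.

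Ppargc1b encodes PGC-1 beta, the more constant relative of PGC-1 alpha. Its level was 28.8, 26.2, 61.9 and 20.1 CPM in wild-type 2, 4, 5 and 6, and 30.6, 34.98, 38.7 and 43.4 CPM in knockout 1 to 4. All knockout libraries were above 3 of the wild-type ones and below wild-type 5. Means were 34.3 ± 18.8 and 36.9 ± 5.45 CPM (SD, n = 4 each), and the log2 fold change was 0.11 ± 0.34 (SE; interval -0.66 to 0.87; edgeR, unadjusted p = 0.762). Without wild-type 5, the highest library for this gene, it was 0.56 (edgeR, unadjusted p = 0.0344, adjusted p = 0.758). The share of all genes with so small an unadjusted p was not counted in that fit. With wild-type 6 left out instead, the log2 fold change was -0.10.

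Lpin1 encodes lipin 1, the phosphatidate phosphatase that makes diacylglycerol for triglyceride synthesis and that in the nucleus joins PPAR alpha and PGC-1 alpha. Its level was 93.2, 85.1, 285.5 and 158 CPM in wild-type 2, 4, 5 and 6, and 121, 108, 221 and 236 CPM in knockout 1 to 4. The order resembles that of Ppara, Esrrg and Ppargc1a, with wild-type 5 first and knockout 3 and 4 next. Means were 155.5 ± 92.7 and 171.5 ± 66.4 CPM (SD, n = 4 each), and the log2 fold change was 0.14 ± 0.45 (SE; interval -0.86 to 1.14; edgeR, unadjusted p = 0.758). Without wild-type 5 it was 0.61, and without wild-type 4 it was -0.06.

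**Figure D2:**
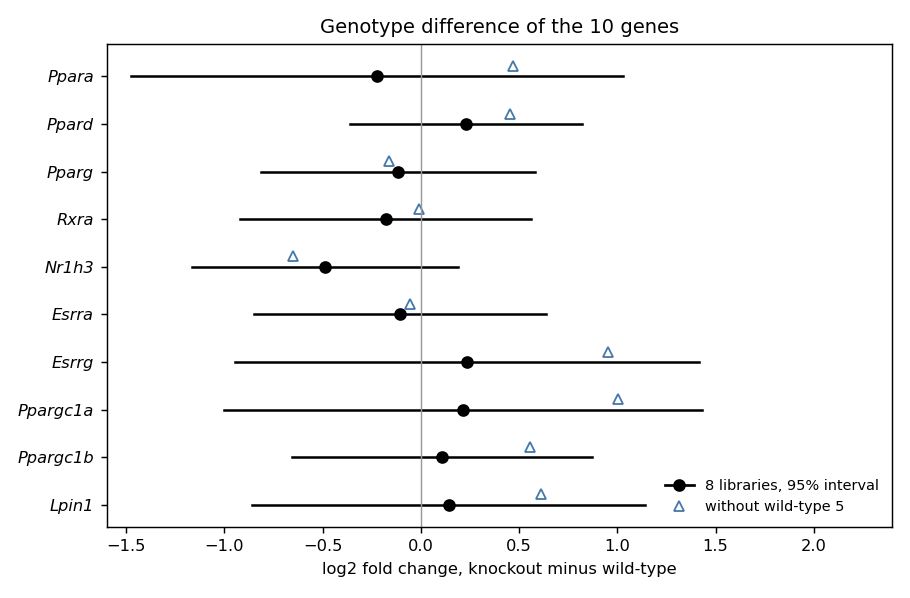
Log2 fold change of each gene, knockout minus wild-type (horizontal axis), from edgeR. Black points and lines give the estimate and its 95% interval with all 8 libraries, and open triangles the estimate without wild-type 5. Every interval crosses 0, and without wild-type 5 the estimates of Ppargc1a and Esrrg move to 1.005 and 0.95.

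The DNA just before the transcription start is shown for Lpin1 and Ppargc1a, because their profiles across the libraries lie close to each other and each has a single annotated start. The sequences are from RefSeq with assembly GRCm38.p6, run 5′ to 3′ on the gene's strand (the minus strand for both) and stop before the first exon. For Lpin1 this is chr12:16610967-16611216, and capitals mark a nuclear receptor half-site, AGGTCA, at positions -74 to -69 from the start. For Ppargc1a it is chr5:51567727-51567975, and capitals mark the reverse complement of the cAMP half-site TGACG at positions -49 to -45.
Lpin1: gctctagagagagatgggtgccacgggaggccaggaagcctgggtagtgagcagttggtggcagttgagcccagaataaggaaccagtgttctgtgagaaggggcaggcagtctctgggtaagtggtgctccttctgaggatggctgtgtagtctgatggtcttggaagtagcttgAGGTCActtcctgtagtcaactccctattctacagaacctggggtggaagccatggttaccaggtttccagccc
Ppargc1a: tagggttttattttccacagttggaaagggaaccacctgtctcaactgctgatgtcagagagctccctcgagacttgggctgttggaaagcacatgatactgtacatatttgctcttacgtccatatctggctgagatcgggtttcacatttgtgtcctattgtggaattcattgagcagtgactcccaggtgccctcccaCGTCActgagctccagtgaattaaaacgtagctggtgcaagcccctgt
The search covered the 250 bases before each start on both strands, in 16 windows of 9 genes in the RefSeq promoter table (not Ppargc1b). AGGTCA also occurred in windows of Pparg and Rxra, and TGACG in that of Ppara at -222 to -218. Of all 32851 windows of that length, 14.0% hold AGGTCA and 17.8% hold TGACG, so a match is a common event. No window of the 9 genes held TNAAGGTCA, the extended half-site of the ERRs (1.14% of all windows), the full cAMP response element TGACGTCA, which contains TGACG on both strands (1.55%), the E-box CACGTG (6.02%), or AGGTCA repeated with a gap of 1 base (0.0335%) or of 4 bases (0.0152%). These letters are a description of the windows only.

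Across the 8 libraries some of the genes had like profiles, whichever the genotype. Likeness was measured as the root-mean-square difference between log2 CPM profiles, each set to its own mean, so that 0 means the same profile. All pairs share the same libraries and their depth and composition. The closest pair was Esrrg and Ppargc1a at 0.193, and every pair among Ppara, Esrrg, Ppargc1a and Lpin1 lay between 0.193 and 0.347. In these 4 genes wild-type 5 was first and knockout 3 and 4 came next on both the CPM and the TPM scale. Esrra and Rxra were at 0.203, and Ppard and Ppargc1b at 0.257. The median distance to other genes was 0.530 for Esrra, 0.559 for Rxra, 0.517 for Ppard and 0.586 for Ppargc1b. Their nearest other genes were closer, at 0.0289, 0.0809, 0.0603 and 0.105. The share of all gene pairs that lie this close was not counted. Nr1h3 and Ppargc1a were farthest apart, at 1.06.

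**Figure D3:**
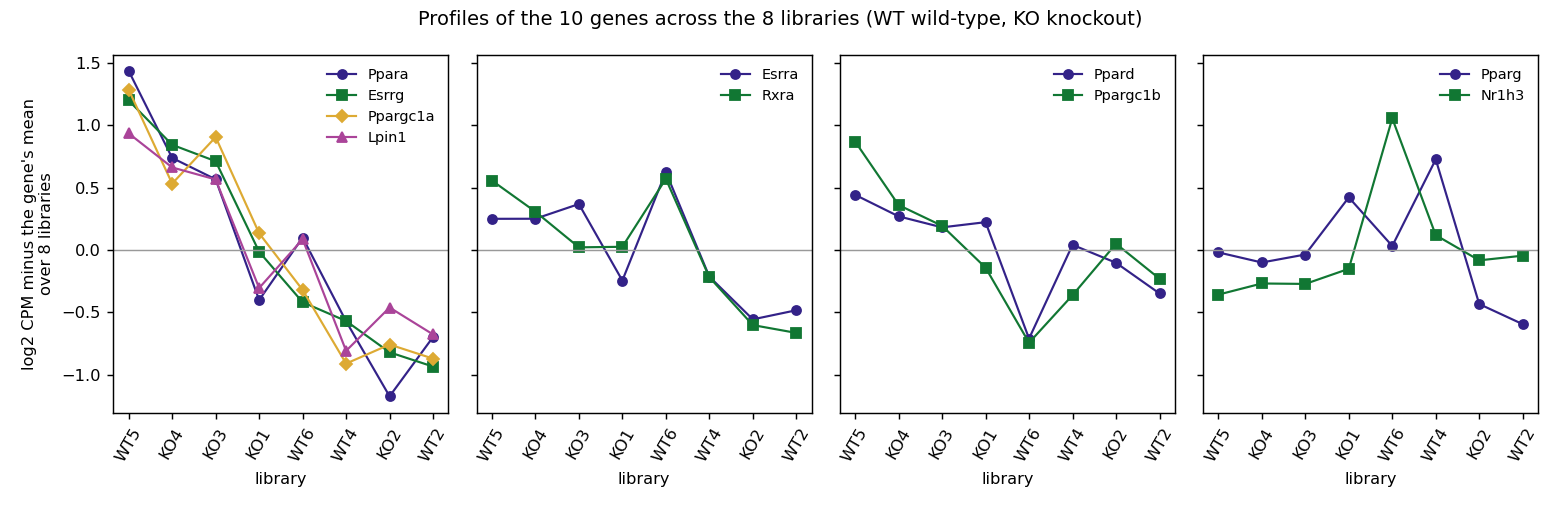
Profiles of the 10 genes over the 8 libraries, as log2 CPM minus the gene's mean (vertical axis), with libraries ordered from wild-type 5 to wild-type 2 in every panel and lines joining the points only to guide the eye. Ppara, Esrrg, Ppargc1a and Lpin1 share the leftmost panel, with wild-type 5 on top and knockout 4 and 3 next, while Nr1h3, in the rightmost, peaks in wild-type 6.

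The place of wild-type 6 depended on the scale. In CPM it was the highest library for Rxra, Nr1h3 and Esrra, while in TPM its rank was 7 of 8 for Rxra and Esrra and 4 of 8 for Nr1h3, and it was last for the other 7 genes. Its TMM factor was 0.678, against 0.964 to 1.16 in the other libraries. The top place of wild-type 5 for Ppara, Ppard, Esrrg, Ppargc1a, Ppargc1b and Lpin1 held on both scales, and in TPM it was also first for Rxra and Esrra. Wild-type 2 and knockout 2, low in cardiomyocyte markers, took the last places in CPM for Ppara, Rxra, Esrra, Esrrg and Pparg. The muscle carnitine transferase Cpt1b, which is not among the 10, was low in the same pair (330.5 and 386 CPM, against 694 to 1028). What part cell composition and transcript length have in these profiles was not tested.

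Some of the genes varied more between libraries than most genes did. The highest library was 6.15 times the lowest in CPM for Ppara, 4.61 times for Ppargc1a, 4.45 times for Esrrg and 3.36 times for Lpin1, where the median over the 9373 genes with a mean of at least 10 CPM was 2.33. Their spans exceeded those of 92.4%, 87.0%, 86.2% and 75.6% of these genes. Ppard, Esrra and Rxra, at 2.24, 2.27 and 2.36 times, lay near the median. The SD of log2 CPM was larger in the wild-type than in the knockout libraries for 10 of the 10 genes. That was so for 8052 of the 9373 genes as well (85.9%), so the share among the 10 is read against a high background.

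By level per transcript length, Esrra stood first. In wild-type 2, 4, 5 and 6 it had 81.5, 116, 164 and 86.3 TPM, and in knockout 1 to 4 it had 109, 96.9, 147 and 148 TPM, a mean of 118 over the 8. Lpin1 followed with a mean of 39.0 TPM (16.3 to 80.2), and the order Esrra, Lpin1, Rxra held in 8 of 8 libraries. Rxra at 22.2 TPM and Nr1h3 at 20.02 TPM were not ordered, each being higher in 4 of 8 libraries. Next came Ppard at 14.8, Ppargc1a at 12.4, Pparg at 11.9 and Ppara at 10.6 mean TPM. Within these, Ppard was above Ppargc1a in 6 of 8 libraries, Ppargc1a above Pparg in 3 of 8 and Pparg above Ppara in 5 of 8, so their means do not give a firm order. Esrrg, at 5.76 TPM, was below Ppara in 8 of 8 libraries, and Ppargc1b, at 4.50 TPM, was below Esrrg in 5 of 8. ERR alpha thus had 12.2 to 59.5 times the TPM of ERR gamma in every library.

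**Figure D4:**
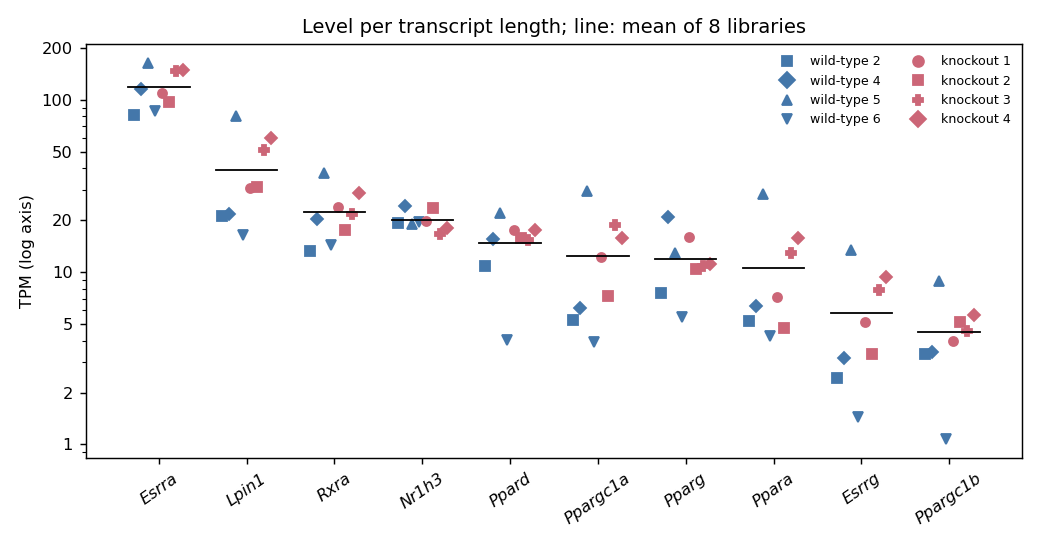
TPM of each gene in each library on a log axis, with genes ordered by their mean (black line), wild-type libraries in blue and knockout libraries in red. Esrra lies above all others in every library, and the middle genes from Rxra to Ppara overlap.

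For each gene the most similar profiles among 9208 other genes of at least 10 CPM were looked up, which is a description over 8 libraries with no test. Ppara was closest to Etfdh (0.213), the flavoprotein dehydrogenase that passes electrons from fatty acid oxidation to the respiratory chain, and to Pm20d2 (0.219). The median distance of Ppara to a gene was 0.875. Etfdh read 797 CPM in wild-type 5, 606 and 613 in knockout 3 and 4, and 176 and 197 in wild-type 2 and knockout 2. Esrrg was closest to Pdpr (0.113), a regulator of pyruvate dehydrogenase phosphatase, and Acad11 (0.146), an acyl-CoA dehydrogenase. Acad11 was also the closest to Ppargc1a (0.180), with Golga4 next (0.205). Lpin1 was closest to Akap6 and Opa1 (both 0.107), an anchor of protein kinase A at the nuclear envelope and the fusion protein of the inner mitochondrial membrane. Esrra was closest to Chd1l (0.0289) and Kcng2 (0.0653), Rxra to Mb21d2 (0.0809) and Dcaf8 (0.107), and Ppard to Atf7 (0.0603) and Med13 (0.0625). Pparg was closest to Efnb1 (0.0580) and Tsnax (0.0613), Ppargc1b to Dnajc16 (0.105) and Pja2 (0.107), and Nr1h3 to Mrpl17 (0.0957) and Nudt16l1 (0.0974).

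The genes around these 10 in their pathways were read from the same fit as 10 lists, and 0 genes on them passed the adjusted threshold, with edgeR or with DESeq2. At an unadjusted p under 0.05 edgeR had 3, all targets of PPAR alpha and delta, where 0.904% of all tested genes did. The lists were chosen with earlier results of these data known, so such a count is no independent comparison. The median log2 fold change over all 12826 tested genes was -0.02, with 6780 negative. Of 29 tested other nuclear receptors, 13 had a positive and 16 a negative log2 fold change (median -0.04). Rxrg, the retinoid X receptor of muscle, and the clock repressor Nr1d1 had the highest TPM on that list, at means of 67.8 and 52.2, with log2 fold changes of -0.13 ± 0.47 and 0.31 ± 0.47 (SE). The other liver X receptor, Nr1h2, was at 77.0 ± 21.5 CPM in wild-type and 62.8 ± 4.68 CPM in knockout hearts (log2 fold change -0.29 ± 0.24). The developmental receptor Nr2f1 had the smallest p in the positive direction (0.40 ± 0.48).

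Coactivators other than the PGC-1 proteins numbered 16 tested, 9 positive and 7 negative (median 0.06). Perm1, the muscle-specific regulator that is induced by PGC-1 and ERR, was at 124 mean TPM, the highest of them. It read 121, 239, 624 and 450 CPM in wild-type 2, 4, 5 and 6, and 347, 114, 552 and 519 CPM in knockout 1 to 4, with the lowest values again in wild-type 2 and knockout 2. Its log2 fold change was 0.09 ± 0.59. Helz2, a PPAR coactivator, and the acetyltransferase Crebbp had values of 0.41 ± 0.38 and -0.25 ± 0.22. Of 11 corepressors 8 were positive and 3 negative (median 0.05), with Hdac5 at -0.36 ± 0.31 and Lcor at 0.43 ± 0.29. Among 23 upstream regulators of PGC-1 alpha 7 were positive and 16 negative (median -0.06). The ubiquitin ligase subunit Fbxw7 was at -0.55 ± 0.35 and the ligase Rnf34, which marks PGC-1 alpha for breakdown, at 0.34 ± 0.27. Without wild-type 6 the values of Nr2f1, Helz2, Fbxw7 and Rnf34 were 0.09, 0.17, -0.24 and 0.19. Those of Nr1h2, Crebbp, Hdac5 and Lcor were then -0.13, -0.12, -0.19 and 0.24.

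Target genes of the receptors were read by receptor. Of 31 tested targets of PPAR alpha and delta, 10 were positive and 21 negative, with a median of -0.22. The median ran from -0.49 without wild-type 2 to -0.04 without knockout 2, and with scaling by total counts it was -0.07 beside 0.08 for all genes. Fabp3, the fatty acid carrier of heart muscle, was at 2997, 3969, 4287 and 14290 CPM in wild-type 2, 4, 5 and 6 and at 3177, 1496, 4063 and 3715 CPM in knockout 1 to 4. In CPM wild-type 6 thus lay far above all other libraries. In TPM Fabp3 was at 8018, 11961, 14638 and 17215 in wild-type 2, 4, 5 and 6, a more gradual spread. In knockout 1 to 4 it was at 9618, 5119, 11303 and 11073 TPM. Because the list was chosen with earlier results of these data known, a count of its genes is no independent comparison with all genes. At an unadjusted p under 0.05 there were 3 of the 31, beside 0.904% of all tested genes. Among them were Acot1, a cytosolic acyl-CoA thioesterase, with a log2 fold change of -2.02 ± 0.63 (edgeR, unadjusted p = 0.00975), and the pyruvate dehydrogenase kinase Pdk4 (-1.10 ± 0.44), which was named after its values were seen. Acot1 read 2.79, 15.4, 33.3 and 27.1 CPM in wild-type 2, 4, 5 and 6, and 5.22, 2.82, 5.87 and 5.46 CPM in knockout 1 to 4. The knockout libraries were all under 3 of the wild-type ones, and wild-type 2 lay below all of them. Pdk4 read 44.9, 57.2, 175 and 106 CPM in wild-type 2, 4, 5 and 6. In knockout 1 to 4 Pdk4 read 26.5, 42.5, 55.1 and 54.6 CPM, so wild-type 2 lay inside the knockout range and wild-type 4 just above it.

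Of 35 ERR targets of energy production 18 were positive and 17 negative (median 0.02, from -0.20 without wild-type 2 to 0.26 without wild-type 6). Cox6a2, the muscle subunit of cytochrome c oxidase, was at -0.998 ± 0.63, with 10280 CPM in wild-type 6 and 1071 to 3437 CPM in the other 7 libraries, and was at -0.16 without wild-type 6. In TPM Cox6a2 was at 12991 in wild-type 6 and at 3850 to 10879 in the other 7. The ketone body enzyme Bdh1 was at 0.41 ± 0.36, and at 0.19 without wild-type 4. Mitochondrial transcription and replication factors were split 7 to 7 of 14 (median -0.04), with the transcription factor Tfb2m at 0.28 ± 0.38. The 14 LXR targets were also split 7 to 7 (median -0.03). Srebf1, the lipogenic factor that LXR induces, was at 43.9 ± 6.45 CPM in wild-type and 57.0 ± 9.30 CPM in knockout hearts (0.38 ± 0.21), and the desaturase Scd1 at 29.2 ± 16.6 and 18.4 ± 2.54 CPM (-0.67 ± 0.35). Scd1 was at 54.1 CPM in wild-type 2 and 19.7 to 22.8 CPM in the other wild-type libraries, and without wild-type 2 its log2 fold change was -0.18. That of Srebf1 was 0.26 without wild-type 6. Lpl, the lipase that Gpihbp1 carries, was at -0.29 ± 0.49.

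Adipocyte targets of PPAR gamma had 8 of 16 genes tested, 2 positive and 6 negative (median -0.30). Cidea, a lipid droplet protein, was at 49.0 ± 27.8 CPM in wild-type and 28.4 ± 3.18 CPM in knockout hearts (log2 fold change -0.78 ± 0.35; edgeR, unadjusted p = 0.0510). Wild-type 6, at 89.4 CPM, lay above the other 3 wild-type libraries (27.0 to 43.8 CPM), and without it the log2 fold change was -0.34. In TPM wild-type 6 was at 51.9, inside the 43.0 to 55.6 of the other 3, and the knockout libraries were at 35.9 to 46.0. Of 12 tested lipins and enzymes of triglyceride synthesis other than Lpin1, 4 were positive and 8 negative (median -0.22). The acyltransferases Dgat1 and Dgat2 were at -0.42 ± 0.25 and 0.11 ± 0.51, and Lpin3 at 0.25 ± 0.32. Dgat1 was at -0.17 without wild-type 6. With 1 library left out at a time the median changed sign in 7 of the 10 lists. It stayed negative in the lists of PPAR alpha and delta targets, PPAR gamma targets and triglyceride synthesis. The median of all tested genes also stayed negative, between -0.055 and -0.0061.

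**Figure D5:**
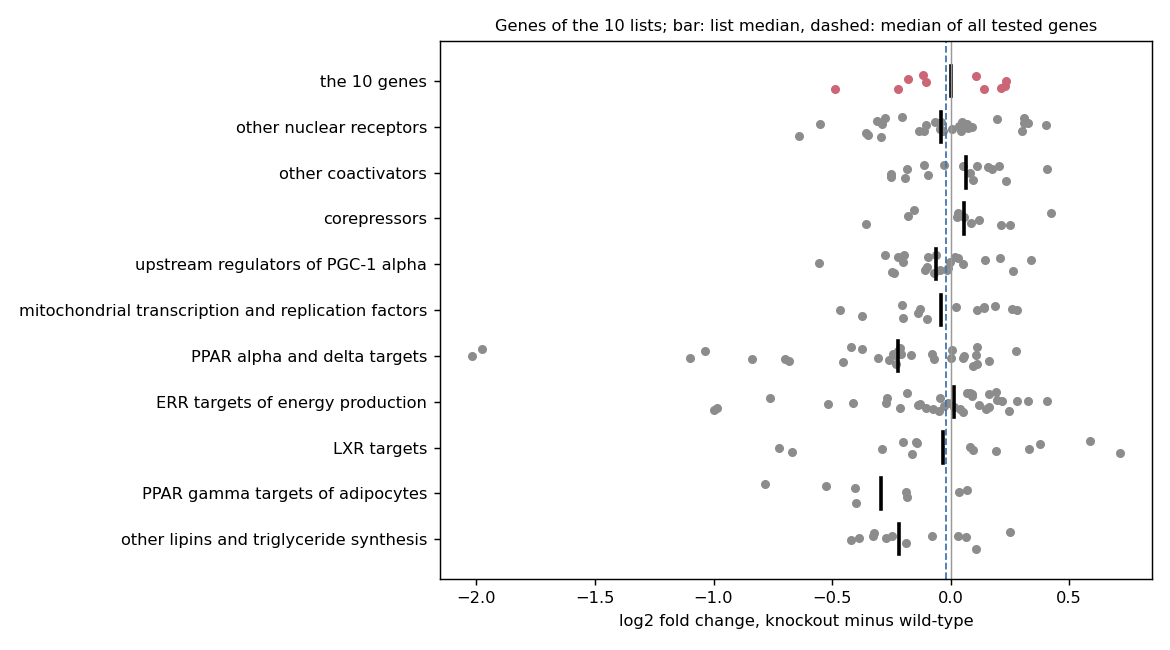
Log2 fold change, knockout minus wild-type (horizontal axis), of each tested gene of the 10 genes described (red) and of the 10 lists of their pathways (grey). Black bars are the median of a list and the dashed line is the median of all tested genes, -0.02. The lists scatter around 0, with Acot1, a target of PPAR alpha and delta, at -2.02.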

How the data were processed

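Mouse heart RNA was sequenced as 8 polyadenylated, strand-specific libraries, per the labels' protocols; 1 protocol paragraph names rat tissue, but 17072 of 17190 identifiers match mouse genes. HISAT, Bowtie2 and GRCm39 appear in the submitters' processing notes; what counted the reads is not stated there. The authors deposited expected counts (estimated counts, 4.32% to 5.89% of them not whole) and TPM, per the file headers. Counts were rounded. Genes were kept with edgeR's filterByExpr (minimum count 10, total 15), scaled by TMM and fitted with the robust quasi-likelihood test of edgeR 4.0.16 (R 4.3.3) over all 8 libraries with no covariates. Benjamini-Hochberg adjustment ran over all 12826 tested genes, with a threshold of 0.05. The SE is the log2 fold change over the root of F, and intervals are 95%. The biological coefficient of variation was 43.7%. The fit was tested on simulated data.

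Profiles used log2 CPM with a prior count of 2. Marker sums are of deposited TPM. Named genes are the 10; Gpihbp1; Postn, Col3a1, Nppa, Myl4 and Cpt1b where libraries stand apart; for each pathway list, any gene past the threshold, the 2 highest in TPM and the smallest p in each direction (mean of at least 1 CPM), of which a part is printed; and the 2 genes most alike in profile to each of the 10. Pdk4, Rxrb, Lpin2 and the genes named for the block fit were chosen after their values were seen. The 10 genes and the lists were chosen with earlier results of these data known. Alternatives were DESeq2 1.42.0, other scalings and filters, a fit that was not robust, left-out libraries and a replicate block. FPKM values were not used. Among the list genes, 1 entered every test and count and is not reported here.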

Additional observations from a re-analysis of the deposited data

Results flagged for a closer look

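Among the 20 sets of 4 values (10 genes in each genotype), 2 held a library that lay far from the other 3 by Dixon's test. Both were wild-type 5. Esrrg was at 47.4 CPM there, against 10.7 to 15.3 CPM in the other wild-type libraries. Ppargc1a was at 126 CPM, against 27.4 to 41.3 CPM in the other wild-type libraries. The genes share these libraries, so the pair is not independent. The share of all genes that Dixon's test would flag was not counted. Both genes belong to the longest class by length, whose median was 0.28 in wild-type 5, and the part of length was not tested.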

How the results depend on the processing

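Of the 10 genes, 0 were called under each of the alternatives run. In 60 values with all libraries and no block (DESeq2, other scalings and filters, a fit that was not robust) 1 changed sign, Esrra with total-count scaling (0.044). In the 110 values with libraries left out or a block, 22 changed sign. Leaving out 1 library gave ranges of -0.51 to 0.47 for Ppara, 0.05 to 0.45 for Ppard, -0.30 to 0.18 for Pparg, -0.37 to -0.011 for Rxra, -0.65 to -0.13 for Nr1h3, -0.26 to 0.10 for Esrra, 0.0033 to 0.95 for Esrrg, -0.048 to 1.005 for Ppargc1a, -0.10 to 0.56 for Ppargc1b, -0.056 to 0.61 for Lpin1, -0.66 to 0.022 for Polg2, -0.029 to 0.21 for Adipor2 and -0.035 to 0.44 for Lpin3. Without wild-type 2, wild-type 6 and knockout 2, Ppard was at -0.030, Esrra at 0.11, Esrrg at -0.013, Ppargc1a at -0.013, Ppargc1b at -0.23 and Polg2 at 0.28. Over all tested genes the 4 calls became 8 with DESeq2 and 2 to 3 with 1 library left out (2 without wild-type 4 or without wild-type 5).

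Only the numbers 2 and 4 occur in both genotypes, and the labels do not say that they pair animals. The deviations of wild-type 2 and knockout 2 correlated at 0.908 across genes, those of wild-type 4 and knockout 4 at 0.110, and wild-type 4 was closer to knockout 1 (0.685). With the number as a replicate block, wild-type 5 and 6 and knockout 1 and 3 each have a number of their own, so the genotype estimate rests on 2 libraries against 2, with 1 residual degree of freedom. In that fit 168 of the 12826 tested genes were called, against 4 in the main fit. Among the 168 were 4 genes of the lists (Esrrb, Nr4a1 and Nr4a3 among them) and 0 of the 10. There Ppara was at 0.43, Rxra at 0.30, Esrra at 0.20, Esrrg at 0.78, Ppargc1a at 0.78 and Lpin1 at 0.84. The unadjusted p of edgeR was 0.00615, 0.00988 and 0.0168 for the last 3, and the adjusted p 0.184, 0.227 and 0.286. How many of all genes had an unadjusted p under 0.05 in that fit was not counted. Acot1 was at -0.82. The narrowest 95% interval of the 10 genes, that of Ppard, ran from -0.36 to 0.82 with 4 libraries a genotype.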

Other observations

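Ratios of TPM within a library were taken for 12 pairs of related genes and are given as values, with no test, since they were looked at after the levels were known. PGC-1 alpha had a higher TPM than PGC-1 beta in each of the 8 libraries, by 1.43 times in knockout 2 to 4.11 times in knockout 3. Ppara was below Ppard in wild-type 2 and 4 and in all 4 knockout libraries (0.30 to 0.90 times), and above it in wild-type 5 (1.29 times) and wild-type 6 (1.06 times). In wild-type 2, 4, 5 and 6 the TPM of Ppargc1a was 1.01, 0.98, 1.05 and 0.92 times that of Ppara. In knockout 1 to 4 it was 1.69, 1.54, 1.46 and 1.003 times that of Ppara. The wild-type libraries lay close to 1 although Ppara itself ran from 4.26 to 28.2 TPM among them. Of the 4 knockout libraries 3 lay above all wild-type ones, with knockout 4 inside their range. How many other gene pairs show such a split was not counted. Lpin1 relative to Ppara was 2.85 to 4.05 in wild-type and 3.82 to 6.56 in knockout libraries, which overlap.

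Among relatives that can stand in for each other, Nr1h3 had 0.39 to 0.62 times the TPM of the other liver X receptor, Nr1h2, in every library. Rxra was below Rxrb in 7 of 8 libraries (0.54 to 0.83 times) and above it in wild-type 5 (1.13 times), and Rxrb was below Rxrg in all 8 (0.31 to 0.79 times). Lpin1 exceeded Lpin2 by 4.35 times in wild-type 2 to 24.0 times in wild-type 6.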
